A study of Homo sapiens with 6 samples.

Results

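*MID1IP1* and the enzymes and regulators of fatty acid synthesis were followed in HepG2 cells, a line from a human liver cancer, after knockout of miR-23a or miR-27a. The 10 genes were 10 of the 20026 genes in the deposited table. *MID1IP1* was chosen by its counts in miR-27a KO against Scr, so that difference is given as a description without a test, and *THRSP*, *ACACA*, *ACACB*, *FASN*, *SCD*, *ACLY*, *ELOVL6*, *SREBF1* and *MLXIPL* were listed with it as genes of the same pathway.

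RNA-seq was collected for 6 libraries in 3 groups, with 2 libraries per group. Scr was HepG2 with wild-type genotype in the labels, a scramble control of the genome editing. miR-23a KO and miR-27a KO were HepG2 cells in which CRISPR/Cas9 with a pair of guide RNAs had been used to delete the respective miRNA and cells had been sorted singly to grow clones. Whether the libraries of a group share a clone is not given in the sources used here. An effect of a knockout and a difference between clones therefore cannot be told apart. The table gave expected counts per gene with totals of 14891239 and 14405250 in Scr, 16515261 and 15930779 with miR-23a knocked out and 15850589 and 15947308 with miR-27a knocked out. Nothing in the labels says that the libraries of a group came from separate cultures, so p-values measure only the spread between these libraries, which may be technical. Both knockouts were compared with the same Scr libraries, and their values are set side by side without a comparison of the comparisons. The 2 miRNAs themselves were not analysed here. The paper reports that its miR-23a KO clones also had less miR-27a-3p by qPCR. It also reports a heterozygous deletion with an insertion in a miR-27a KO clone.

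Fatty acid synthesis starts from citrate, which ATP citrate lyase splits to acetyl-CoA in the cytosol. Acetyl-CoA carboxylase turns acetyl-CoA into malonyl-CoA, fatty acid synthase builds palmitate from it, and elongases and desaturases give longer and unsaturated chains. MID1IP1 is a small protein that binds acetyl-CoA carboxylase and promotes its assembly into active filaments, and in liver the transcription factors SREBP-1c and ChREBP switch the genes of the pathway on after feeding.

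The mature sequences of both miRNAs are shown because their seeds, bases 2 to 8 in capitals, differ and so pair with different target letters. The sequences come from RefSeq (GRCh38.p14).
miR-23a-3p: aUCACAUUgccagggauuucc
miR-27a-3p: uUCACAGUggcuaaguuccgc
miR-23a-3p lies at chr19:13836595-13836615 and miR-27a-3p at chr19:13836447-13836467, both on the minus strand. The letters complementary to the seed were AATGTGA for miR-23a-3p and ACTGTGA for miR-27a-3p. They were searched on the sense strand of 3′UTRs, taking for a gene its longest one in GENCODE 29, which all 10 genes had. The miR-23a-3p letters were found in 1 of the 10 genes and in 19.3% of 15888 3′UTRs, and the miR-27a-3p letters in 2 of the 10 and in 16.7% of them. *MID1IP1* held neither in its 3′UTR of 1039 bases, nor did 7 other members, so 8 of the 10 had no match. The matches of *ACACA* and *ELOVL6* are printed with the matching letters in capitals.
ACACA, miR-27a-3p: atgagggcaaaACTGTGAgccaagaagca
ACACA, miR-27a-3p: gatggacacatACTGTGAtgagcaggagc
ELOVL6, miR-27a-3p: ggcccaggaccACTGTGAgctggaaaagg
ELOVL6, miR-23a-3p: ctcaaccaaacAATGTGAaaacgggttct
ELOVL6, miR-23a-3p: taaagttgttcAATGTGAcataatagtat
These stretches of exonic 3′UTR lie, in that order, at chr17:37086677-37086705, chr17:37085047-37085075, chr4:110050385-110050413, chr4:110050435-110050463 and chr4:110049772-110049800 (GRCh38), all on the minus strand. A match is a description of letters and was not measured as a binding site.

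*MID1IP1* (gene ID 58526, X chromosome, 38801432 to 38806537, plus strand, GRCh38) had 1370 and 1226 counts in Scr, 1266 and 544 with miR-23a knocked out and 4 and 3 with miR-27a knocked out. Its transcript was nearly absent from both miR-27a KO libraries and well covered in the other 4. In CPM, which are counts scaled to a common library size with TMM factors, the level averaged 89.1 ± 8.79 for Scr, 62.8 ± 47.4 after loss of miR-23a and 0.212 ± 0.0436 after loss of miR-27a (SD, n = 2 each). From the summed counts of 2596 and 7, the level was 421-fold lower in miR-27a KO than in Scr, with an exact 95% interval of 204 to 1050 that covers counting error only. Against the 1810 counts of miR-23a KO it was 270-fold lower (131 to 672). The fitted log2 fold change against Scr was -8.67, and this contrast is the one the gene was chosen on. The libraries of miR-23a KO and Scr overlapped, since the first miR-23a KO library lay at 96.3 CPM, above both Scr libraries at 95.3 and 82.9, and the second at 29.3. Fitted on the log2 scale, miR-23a KO against Scr gave -0.47 (SE 0.57) with a Benjamini-Hochberg adjusted p of 1 in edgeR's quasi-likelihood test. Without miR-23a KO library 1 it was -1.56, and without library 2 it was 0.11. Lower RNA per cell and fewer cells with the RNA cannot be told apart in bulk libraries.

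**Figure D1:**
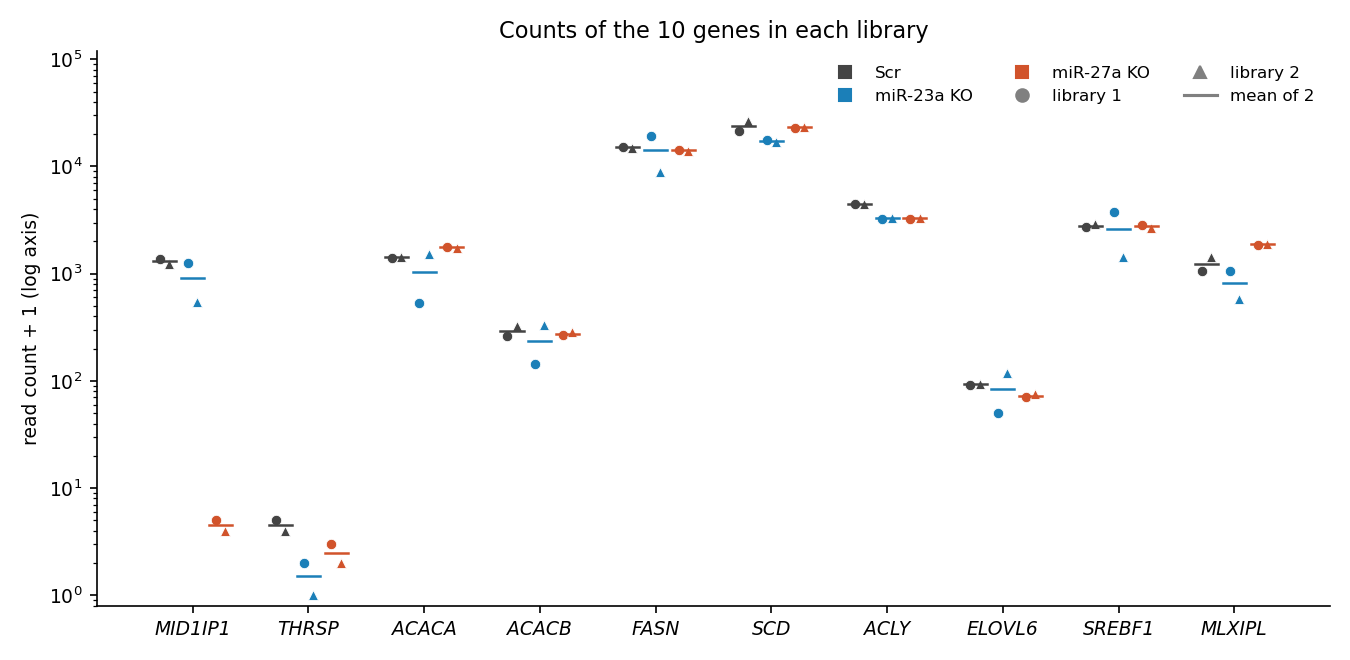
Read counts plus 1 of the 10 genes on a log axis, with circles for library 1, triangles for library 2 and bars for the mean of the 2 libraries, for Scr and both knockouts. *MID1IP1* lies at 4 and 3 counts in miR-27a KO and at 544 or more in the other libraries, while no other member spans such a range.

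*THRSP* (gene ID 7069, chromosome 11, 78063861 to 78068351), the paralogue of *MID1IP1* also known as Spot 14, had 4 and 3 counts in Scr, 1 and 0 with miR-23a knocked out and 2 and 1 with miR-27a knocked out. It was at or near the floor of 3 counts in all 6 libraries, was removed by the filter on low counts, and is given no fold change. The paralogue was thus not detectable at a level that allows a comparison in any group. *MID1*, the microtubule-bound ubiquitin ligase after which *MID1IP1* is named, had 100 and 165 counts in Scr, 96 and 197 with miR-23a knocked out and 52 and 51 with miR-27a knocked out. Both miR-27a KO libraries lay below Scr, whereas in CPM the miR-23a KO libraries, at 7.31 and 10.6, lay between those of Scr at 6.96 and 11.2. *MID1* fell by 1.54 on the log2 scale in miR-27a KO (SE 0.32, adjusted p = 0.0369 in edgeR), and its relative *MID2* had 4 counts or fewer in each library.

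Genes are said to be called where the fold change exceeded 1.5 and the adjusted p was below 0.05. In miR-27a KO against Scr, 487 genes were higher and 931 lower of 13820 tested (3.52% and 6.74%, together 1418 genes or 10.3%), and 4 genes (0.0289%) passed at the stricter adjusted p under 0.001. Of the 10 members 9 were tested. Apart from *MID1IP1*, which this contrast selected, 1 of 8 was called, which at 12.5% is near the share among all genes. In miR-23a KO against Scr, edgeR called 0 of the 9 members and 0 of 13786 genes (0%). Without adjustment, p was below 0.05 for 118 higher and 214 lower genes, and DESeq2 called 4 higher and 59 lower, none of them a member. Between miR-23a KO and miR-27a KO edgeR called 0 of the 8 tested members other than *MID1IP1* and 0 of 13841 genes (0%), with 645 genes higher and 562 lower at an unadjusted p under 0.05, and DESeq2 called 259 higher and 218 lower. The miR-23a KO libraries differed from each other more than those of the other groups. The SD of the log2 ratio between the 2 libraries over 14163 genes was 1.278 in miR-23a KO, 0.638 in Scr and 0.434 in miR-27a KO.

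The members fell into sets in the ratio of CPM between miR-23a KO library 1 and library 2. *SREBF1* (3.67), *MID1IP1* (3.29), *FASN* (3.05) and *MLXIPL* (2.54) were higher in library 1, and their transcripts had GC contents of 56.3% to 65.3%. *ACACB* (0.61), *ELOVL6* (0.592) and *ACACA* (0.495) were lower in it, with GC contents of 41.2% to 54.7%, and *SCD* (1.49) and *ACLY* (1.37) lay between, with GC contents of 47.1% and 52.2% that fall within the range of the lower set. Over 13458 genes the log2 ratio had a Spearman correlation with GC content of 0.665 in miR-23a KO, 0.452 in Scr and 0.095 in miR-27a KO, a description across genes, which are not independent replicates. With transcript length the correlations were -0.46, -0.196 and 0.0102 in the same order. The correction given with some members adjusts GC content and length together, so their parts cannot be told apart. Without miR-23a KO library 1 edgeR called *FASN*, *MID1IP1*, *MLXIPL* and *SREBF1* lower in miR-23a KO, and without library 2 it called *ACACA* lower, with the remaining library assumed to vary like those of Scr. Over all genes these fits called 594 without library 1 and 2630 without library 2, where the full comparison called 0.

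*ACLY* (gene ID 47, chromosome 17, 41866908 to 41930542, minus strand), ATP citrate lyase, had 4443 and 4422 counts in Scr, 3232 and 3323 with miR-23a knocked out and 3262 and 3323 with miR-27a knocked out. All 4 knockout libraries lay below both Scr libraries, at 179 to 246 CPM against 309 and 299. *ACLY* fell by 0.62 on the log2 scale in miR-27a KO (SE 0.08, adjusted p = 0.0134 in edgeR), and was the member called there. In miR-23a KO the difference was -0.46 (SE 0.44, edgeR adjusted p = 1). The size lay close to the 1.5-fold threshold, and the call was lost after correction for GC content and length (log2 fold change -0.48), with all 6 libraries in one fit (-0.61, over the 7 alternatives adjusted p from 1.16e-05 to 0.776), and without Scr library 1 (-0.58), miR-27a KO library 1 (-0.60) or miR-27a KO library 2 (-0.61).

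The list of citrate and acetyl-CoA supply held 6 other genes, all tested. *ACSS2*, which makes acetyl-CoA from acetate, was the 1 called in miR-27a KO. Its counts were 1026 and 1176 in Scr, 1925 and 584 with miR-23a knocked out and 814 and 844 with miR-27a knocked out, where it fell by 0.59 on the log2 scale (edgeR adjusted p = 0.0241). The miR-23a KO libraries lay on either side of Scr. The list's median log2 fold change in miR-27a KO was -0.20, against 0.01 over all genes tested. The calls of this and the other lists stand beside shares of 3.52% called higher and 6.74% called lower among all genes, and are given as counts without a test of the list.

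*ACACA* (gene ID 31, chromosome 17, 37084988 to 37406818, minus strand), the cytosolic acetyl-CoA carboxylase that commits carbon to fatty acid synthesis, had 1388 and 1441 counts in Scr, 532 and 1519 with miR-23a knocked out and 1779 and 1751 with miR-27a knocked out. Scaled for depth, the values were 96.6 and 97.4 CPM in Scr, 40.5 and 81.8 with miR-23a knocked out and 108 and 105 with miR-27a knocked out. The miR-27a KO libraries thus lay above Scr and the miR-23a KO libraries below it. Neither difference passed the test, with log2 fold changes of 0.13 (SE 0.08, adjusted p = 0.293 in edgeR) and -0.58 (SE 0.51, adjusted p = 1). The latter became -0.20 without miR-23a KO library 1 and -1.26 without library 2. After correction for GC content and length the miR-27a KO value was -0.01.

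*ACACB* (gene ID 32, chromosome 12, 109116595 to 109268226, plus strand), the carboxylase of the outer mitochondrial membrane whose malonyl-CoA holds back fatty acid uptake into mitochondria, had 261 and 324 counts in Scr, 142 and 329 with miR-23a knocked out and 268 and 282 with miR-27a knocked out. In CPM both knockouts lay below Scr, at 10.8 and 17.7 without miR-23a and 16.2 and 17 without miR-27a, against 18.2 and 21.9. The log2 fold changes were -0.41 (SE 0.54, edgeR adjusted p = 1) and -0.27 (SE 0.16, adjusted p = 0.298). Per kilobase of transcript, *ACACA* averaged 9.74 CPM in Scr and *ACACB* 2.14.

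*CPT1A*, the carnitine palmitoyltransferase that malonyl-CoA inhibits, had 892 and 976 counts in Scr, 296 and 947 with miR-23a knocked out and 1867 and 1781 with miR-27a knocked out. As for *ACACA*, miR-27a KO lay above Scr and miR-23a KO below it in CPM. *CPT1A* rose by 0.78 on the log2 scale in miR-27a KO (edgeR adjusted p = 0.0107) and was the 1 called of the 3 genes tested for malonyl-CoA use. *CPT1B*, the muscle form, had 0 and 6 counts in Scr, 2 and 5 with miR-23a knocked out and 32 and 37 with miR-27a knocked out, and was not called (adjusted p = 0.0758 in edgeR).

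AMPK, the kinase that inactivates both carboxylases by phosphorylation, and its activator LKB1 gave a list of 9 genes, 8 of them tested. In miR-27a KO 1 was called higher and 1 lower. *PRKAG1*, a gamma subunit, had 246 and 293 counts in Scr, 336 and 267 with miR-23a knocked out and 509 and 563 with miR-27a knocked out, with a log2 fold change in miR-27a KO of 0.81 (edgeR adjusted p = 0.0274). *PRKAB1*, a beta subunit, had 1237 and 1504, 1543 and 1293, and 1027 and 1029 in the same order, with -0.60 (edgeR adjusted p = 0.0292). The 2 subunits moved in opposite directions in miR-27a KO, and the list's median was 0.19. The catalytic subunits *PRKAA1* and *PRKAA2* had adjusted p of 0.522 and 0.312 there in edgeR.

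*FASN* (gene ID 2194, chromosome 17, 82078333 to 82098332, minus strand), fatty acid synthase, had 15262 and 14929 counts in Scr, 19265 and 8927 with miR-23a knocked out and 14301 and 13876 with miR-27a knocked out. In CPM the miR-27a KO libraries, at 867 and 836, lay below the Scr libraries at 1060 and 1010, and the miR-23a KO libraries lay on either side, at 1470 and 481. The log2 fold change was -0.29 (SE 0.08, adjusted p = 0.0858 in edgeR) in miR-27a KO and -0.06 (SE 0.59, adjusted p = 1) in miR-23a KO. The latter became 0.50 without miR-23a KO library 2 and -1.06 without library 1.

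The NADPH that *FASN* consumes comes from a list of 5 genes, of which 4 were tested and none was called by edgeR in any comparison. *PGD*, a dehydrogenase of the pentose phosphate pathway, was the most abundant and averaged 792 CPM in Scr. *ME1*, the malic enzyme of the cytosol, was at 1 count in 1 Scr library and 0 in the other 5 libraries.

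*SCD* (gene ID 6319, chromosome 10, 100347124 to 100364834, plus strand), the desaturase that makes oleate, had 21247 and 26465 counts in Scr, 17831 and 16924 with miR-23a knocked out and 23023 and 23205 with miR-27a knocked out. All 4 knockout libraries lay below Scr in CPM, at 1360 and 911 in miR-23a KO and 1400 in both miR-27a KO libraries, against 1480 and 1790. The log2 fold changes of -0.47 (SE 0.50, adjusted p = 1 in edgeR) and -0.23 (SE 0.12, adjusted p = 0.242) did not pass. Per kilobase *SCD* had the highest level of the members in Scr, at 305 ± 41.0 CPM, followed by *FASN* at 121 ± 4.34 and *ACLY* at 70.1 ± 1.66 (SD, n = 2). These levels were apart by more than their spread. Next came *SREBF1* at 45.2 ± 1.58, then *MLXIPL* at 25.8 ± 4.80 and *MID1IP1* at 23.6 ± 2.33, a pair whose order lay within the spread. *ACACA* at 9.74 ± 0.06, *ACACB* at 2.14 ± 0.283 and *ELOVL6* at 0.972 ± 0.00277 followed, with *THRSP* last at 0.205 ± 0.0455.

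*ELOVL6* (gene ID 79071, chromosome 4, 110045846 to 110199199, minus strand), the elongase that extends palmitate, had 90 and 93 counts in Scr, 49 and 117 with miR-23a knocked out and 69 and 75 with miR-27a knocked out. The miR-27a KO libraries lay below Scr and the miR-23a KO libraries around it. The log2 fold change was -0.53 (SE 0.23, adjusted p = 0.188 in edgeR) in miR-27a KO and -0.24 (SE 0.63, adjusted p = 1) in miR-23a KO. Of 13 other elongases, desaturases and their partner enzymes in the table, 12 were tested in miR-27a KO and 1 was called, with a median of -0.28. This was *FADS2*, a desaturase of polyunsaturated fatty acids, with 1661 and 1687 counts in Scr, 5225 and 1211 with miR-23a knocked out and 940 and 1110 with miR-27a knocked out, where it fell by 0.89 on the log2 scale (edgeR adjusted p = 0.0127). *ELOVL4* and *SCD5* were not analysed here.

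**Figure D2:**
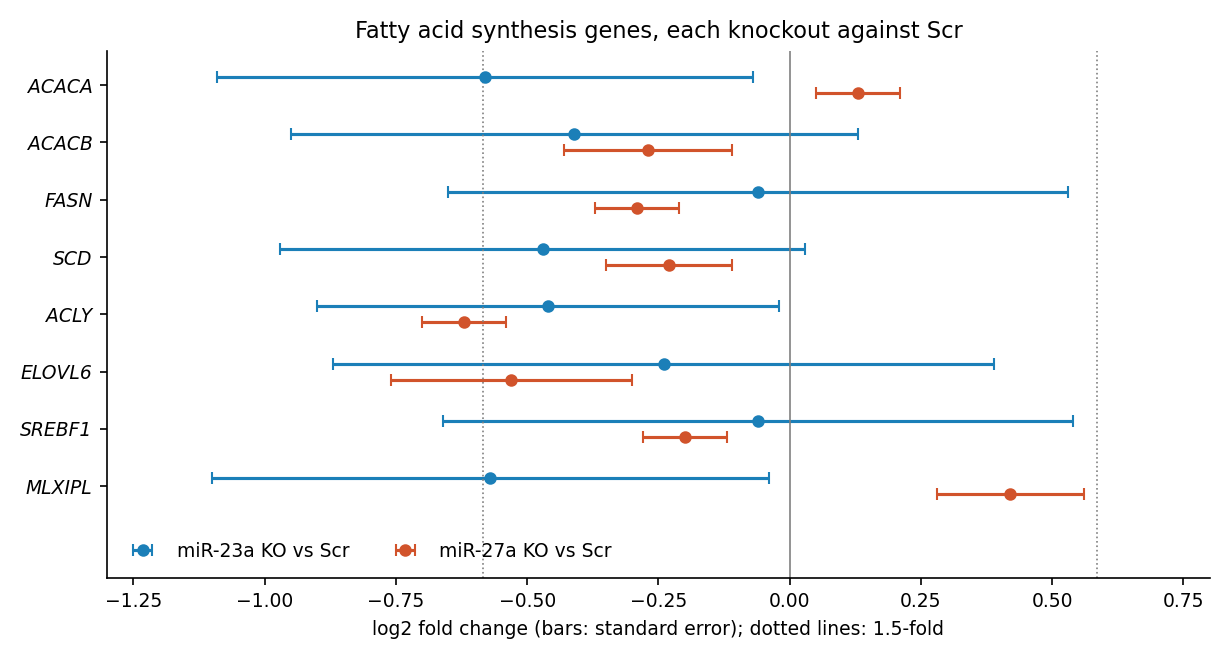
Log2 fold changes against Scr of the 8 tested members other than *MID1IP1*, with bars for the standard error and dotted lines at 1.5-fold. In miR-27a KO *ACLY* lies beyond the lower line at -0.62, and the bars of miR-23a KO are wider for each gene.

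*SREBF1* (gene ID 6720, chromosome 17, 17810399 to 17837002, minus strand) encodes SREBP-1, which activates the genes of the pathway in response to insulin. It had 2695 and 2914 counts in Scr, 3742 and 1442 with miR-23a knocked out and 2853 and 2687 with miR-27a knocked out. In CPM the miR-27a KO libraries lay below Scr, at 173 and 162 against 187 and 197, and the miR-23a KO libraries on either side, at 285 and 77.7. The log2 fold change was -0.20 (SE 0.08, adjusted p = 0.16 in edgeR) in miR-27a KO and -0.06 (SE 0.60, adjusted p = 1) in miR-23a KO. After correction for GC content and length the miR-27a KO value was 0.08.

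SREBP is held in the endoplasmic reticulum with SCAP and INSIG proteins and is cleaved by site proteases in the Golgi. Of the 7 genes of this machinery 6 were tested, and 2 were called in miR-27a KO, both higher, with a list median of 0.32. *SPRING1*, which is needed for SREBP activation, had 883 and 1062 counts in Scr, 495 and 683 with miR-23a knocked out and 2017 and 2061 with miR-27a knocked out (log2 fold change in miR-27a KO 0.88, edgeR adjusted p = 0.0123). *INSIG2*, an anchor of SCAP, had 239 and 265, 139 and 652, and 462 and 536 in the same order (0.80, edgeR adjusted p = 0.0283). For both genes the miR-27a KO libraries lay above all Scr libraries. *INSIG1* was at 2 counts or fewer in each library.

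*MLXIPL* (gene ID 51085, chromosome 7, 73593194 to 73624543, minus strand) encodes ChREBP, the factor that responds to glucose metabolites. It had 1057 and 1417 counts in Scr, 1047 and 582 with miR-23a knocked out and 1862 and 1886 with miR-27a knocked out. The miR-27a KO libraries, at 113 and 114 CPM, lay above the Scr libraries at 73.5 and 95.8, and the miR-23a KO libraries at 79.7 and 31.3 overlapped them. The log2 fold change was 0.42 (SE 0.14, adjusted p = 0.109 in edgeR) in miR-27a KO and -0.57 (SE 0.53, adjusted p = 1) in miR-23a KO. Between the knockouts the difference was -1.02 for miR-23a KO against miR-27a KO (edgeR adjusted p = 0.724). With 1 library left out it ran from -1.86 to -0.50, and the value of miR-23a KO against Scr from -1.39 to -0.09. Without Scr library 2 *MLXIPL* was called higher in miR-27a KO (0.62). Correction for GC content and length moved the value against Scr to 0.70 without a call, and the difference between the knockouts to -1.43, which was called (over the 7 alternatives edgeR or DESeq2 adjusted p from 0.0108 to 0.889).

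Of 6 ChREBP target genes tested, 2 were called in miR-27a KO, both lower, with a list median of -0.45. *TXNIP*, an arrestin-like protein that restrains glucose uptake, had 2032 and 1190 counts in Scr, 427 and 1675 with miR-23a knocked out and 757 and 729 with miR-27a knocked out, where it fell by 1.31 on the log2 scale (edgeR adjusted p = 0.0373), and by 0.84 when Scr library 1 was left out. *ARRDC4*, its relative, had 165 and 152, 26 and 239, and 70 and 65 in the same order and fell by 1.42 (edgeR adjusted p = 0.0202). The miR-27a KO libraries lay below Scr for both, while *MLXIPL* itself lay above it without passing the test. *PKLR*, liver pyruvate kinase, was not called (-0.48, edgeR adjusted p = 0.168). Of 11 other transcription factors of lipogenesis, 1 was called in miR-27a KO, with a median of 0.00. *PPARGC1B*, a coactivator of SREBP, had 72 and 46 counts in Scr, 34 and 134 with miR-23a knocked out and 13 and 5 with miR-27a knocked out (log2 fold change -2.88, edgeR adjusted p = 0.0333). Without miR-27a KO library 1 the value was -3.71, and without library 2 it was -2.34 and not called.

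Taking the members by position relative to Scr, the miR-27a KO libraries did not overlap Scr for any of the 8 tested members other than *MID1IP1*, with 6 lower and 2 higher. Among all genes tested 31.9% were lower and 32.4% higher without overlap, so non-overlap was common there. In miR-23a KO 4 of 9 tested members were lower without overlap (*ACACA*, *ACACB*, *SCD* and *ACLY*), 0 were higher and 5 overlapped, against 14.9% lower and 8.88% higher of all genes. The median log2 fold change of the 8 members was -0.43 in miR-23a KO, where that of all genes was 0.16, and -0.25 in miR-27a KO, where it was 0.01. All 8 lay below 0 in miR-23a KO in each of the 7 alternative fits, but 7 did without miR-23a KO library 1, where the medians were -0.76 and -0.05 for the members and all genes, and 6 without library 2, where they were -0.29 and -0.08.

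Downstream of palmitate, 11 of 12 genes of triglyceride assembly were tested and edgeR called none in any comparison. The median in miR-27a KO was 0.06. *AGPAT1*, an acyltransferase, was the most abundant in Scr at 317 CPM and was lower in miR-27a KO by less than 1.5-fold (log2 fold change -0.54, edgeR adjusted p = 0.0245), followed by *DGAT1*, which adds the last acyl chain, at 181 CPM. Of 10 lipid droplet genes, all tested, 3 were called in miR-27a KO, each lower, against 6.74% of all genes, with a median of -0.38. *FITM1*, which partitions triglyceride into droplets, had 259 and 266 counts in Scr, 898 and 256 with miR-23a knocked out and 24 and 30 with miR-27a knocked out, where it fell by 3.46 on the log2 scale (edgeR adjusted p = 0.004). *CIDEC*, which promotes droplet fusion, had 456 and 643, 932 and 241, and 330 and 289 in the same order and fell by 1.01 (edgeR adjusted p = 0.032). *PLIN3*, a droplet coat protein, had 4338 and 3954, 6122 and 4085, and 2666 and 2718 and fell by 0.81 (edgeR adjusted p = 0.0113). For these 3 genes both miR-27a KO libraries lay below Scr, while *PLIN2*, the droplet coat of hepatocytes, had an adjusted p of 0.921 in edgeR.

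**Figure D3:**
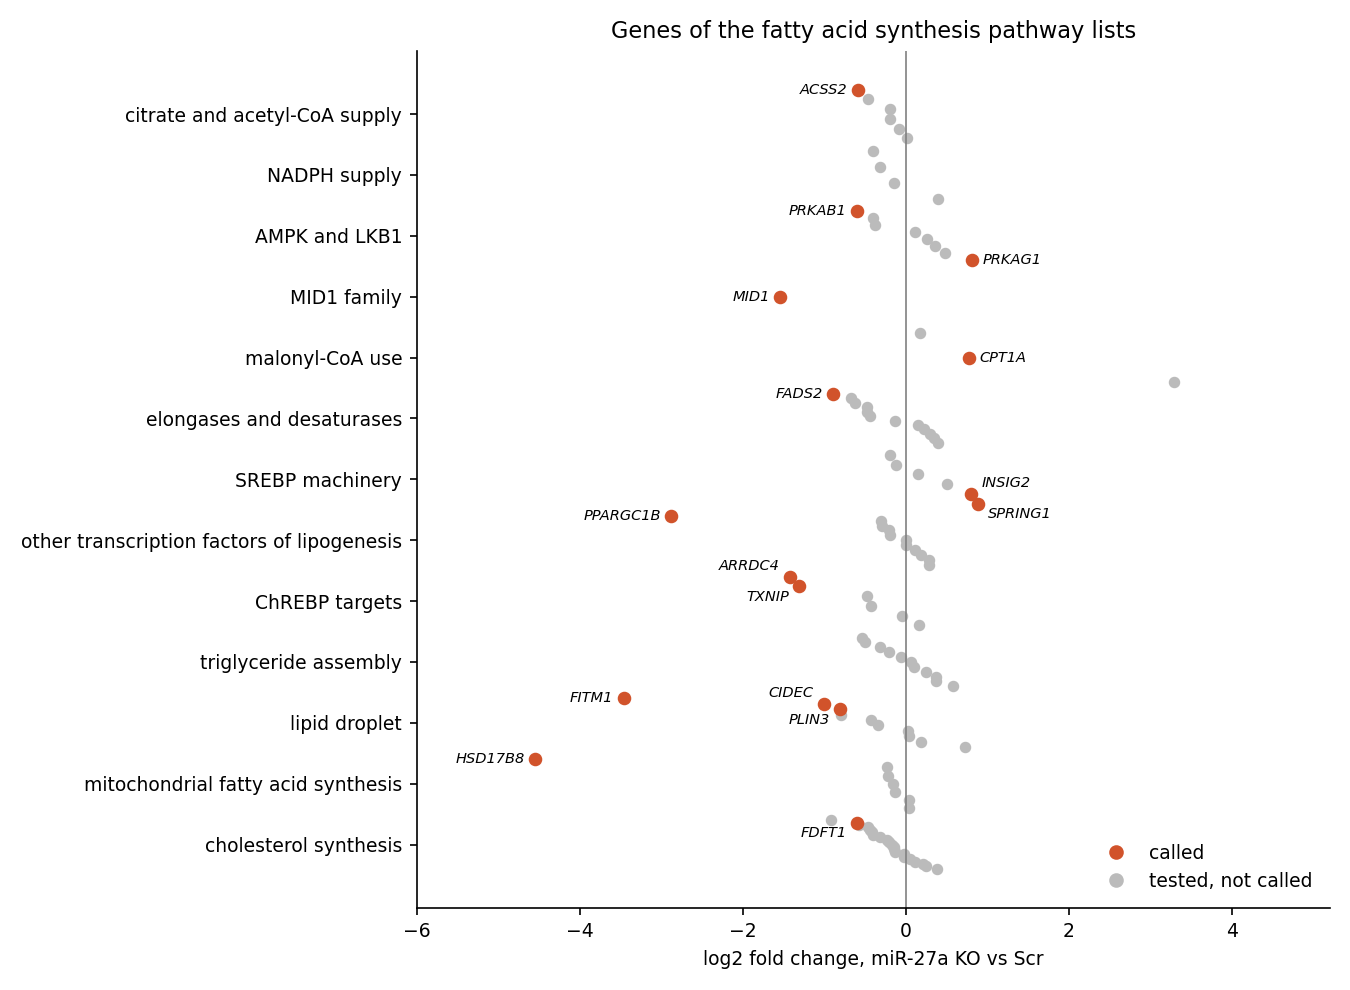
Log2 fold changes in miR-27a KO against Scr of the tested genes in 13 lists around fatty acid synthesis, 1 point per gene, with called genes named. Of 106 genes, 4 called genes lie to the right of 0 and 12 to the left, and the lists of NADPH supply and triglyceride assembly hold none.

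Mitochondria make fatty acids by a separate set of enzymes, and 1 of 7 tested genes of this list was called in miR-27a KO. *HSD17B8*, a subunit of its ketoacyl reductase, had 92 and 57 counts in Scr, 53 and 19 with miR-23a knocked out and 7 and 0 with miR-27a knocked out (log2 fold change -4.55, edgeR adjusted p = 0.0357). The value was -9.29 without miR-27a KO library 1, where the remaining library holds 0 counts, and -3.56 without a call when library 2 was left out. Its partner subunit *CBR4* had a log2 fold change of 0.04. Of 21 genes of cholesterol synthesis, which SREBP-2 drives, 1 was called in miR-27a KO, with a median of -0.17. *FDFT1*, squalene synthase, had 16164 and 14892 counts in Scr, 17782 and 6693 with miR-23a knocked out and 11604 and 11682 with miR-27a knocked out and fell by 0.60 on the log2 scale (edgeR adjusted p = 0.0212). Over the 13 lists, 16 of 106 tested genes were called in miR-27a KO (15.1%, against 10.3% of all genes). With all 6 libraries in one fit 0 of the 16 was called, where edgeR called 64 genes in all, and without the low-count filter 8 were. The fold changes themselves moved little in the fit of all 6 libraries, as with *FITM1* at -3.46, *SPRING1* at 0.89, *CPT1A* at 0.78 and *MID1* at -1.54. After correction for GC content and length 12 were called, and *ACSS2* (-0.42), *PRKAB1* (-0.41), *CIDEC* (-0.75) and *PLIN3* (-0.53) were not. Without miR-27a KO library 1 the 5 genes called were *SPRING1*, *FITM1*, *HSD17B8*, *PPARGC1B* and *TXNIP*, and without library 2 the 2 were *FADS2* and *FITM1*. The calls of *FDFT1* (-0.51) without Scr library 1 and of *ACSS2* (-0.51) and *PRKAB1* (-0.47) without Scr library 2 were lost too. In miR-23a KO and between the knockouts edgeR called 0 of 107 tested list genes.

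On the X chromosome the 5 nearest protein-coding genes of the table on each side of *MID1IP1* were taken in order. The nearest, *TSPAN7*, a membrane protein of the tetraspanin family, ends 113 kb before *MID1IP1* and had 1491 and 1165 counts in Scr, 1385 and 1164 with miR-23a knocked out and 5 and 3 with miR-27a knocked out. The 2 adjacent genes thus were both well covered in Scr and miR-23a KO and near 0 in miR-27a KO. *TSPAN7* was the 1 called gene of 7 neighbours tested in miR-27a KO. Further to the same side, *OTC*, of the urea cycle, had 1 to 9 counts per library and *RPGR* 20 and 45 in Scr and 31 and 28 in miR-27a KO. *SRPX* and *SYTL5*, beyond *RPGR*, had 4 to 7 counts in Scr and 0 in both miR-27a KO libraries. On the other side the nearest gene was *BCOR*, a transcriptional corepressor, 1240 kb away, with 933 and 808 counts in Scr and 947 and 1080 in miR-27a KO. *ATP6AP2*, *CXorf38*, *MED14* and *USP9X* follow it, and none was called. Among 404 tested genes of the X chromosome, 7 were called higher and 28 lower in miR-27a KO (8.66%), with a median log2 fold change of -0.02.

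**Figure D4:**
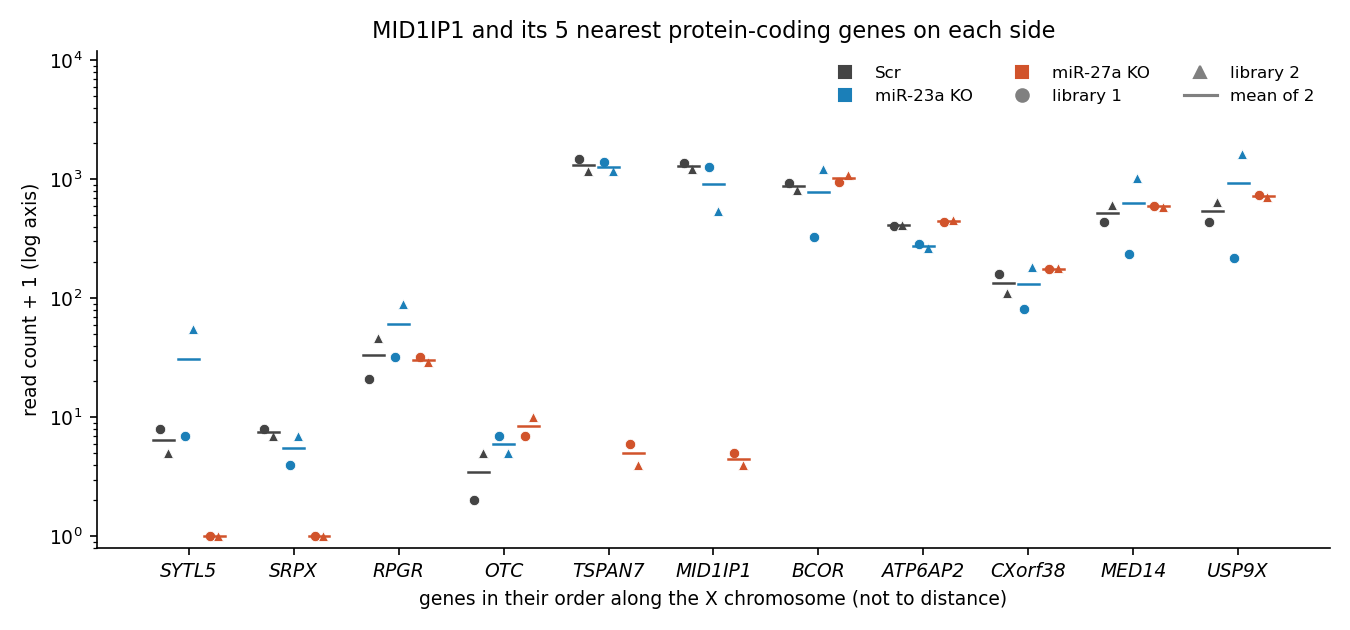
Read counts plus 1, on a log axis, of *MID1IP1* and 5 protein-coding genes on each side in their order along the X chromosome, with circles and triangles for libraries 1 and 2 and bars for their mean. *TSPAN7* and *MID1IP1* lie at 3 to 5 counts in miR-27a KO and at 544 or more in the other libraries, and *BCOR* has similar counts in Scr and miR-27a KO.

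The genes most like *MID1IP1* over the 6 libraries, by Pearson correlation of log2 CPM, were *DLK1*, *CACNA2D4*, *MEP1A*, *GNG4* and *SLC37A2*, with r from 0.9963 to 0.9986. All 5 were lower in both miR-27a KO libraries than in the other 4, although *CACNA2D4* kept 328 and 314 counts and *SLC37A2* 190 and 142, and r over 6 libraries that fall into 2 sets is a description only. *DLK1*, a Notch-related membrane protein of fetal liver, had 4771 and 4006 counts in Scr, 3728 and 1626 with miR-23a knocked out and 11 and 15 with miR-27a knocked out. Of 8556 genes with at least 100 counts in each Scr and miR-23a KO library, 21 had at most 10 counts in both miR-27a KO libraries. By their level in Scr the first 8 were *MEP1A*, *COLGALT2*, *TSPAN7*, *MID1IP1*, *NRP1*, *BCAT1*, *WNT9B* and *NRP2*. *MEP1A*, a metalloprotease subunit, had 1291 and 2032 counts in Scr, 1863 and 864 with miR-23a knocked out and the same 4 and 3 counts as *MID1IP1* in miR-27a KO. *FADS6*, a member of the fatty acid desaturase family that was picked out after its values were seen, was also among the 21, with 113 and 180 counts in Scr, 165 and 103 with miR-23a knocked out and 4 and 5 with miR-27a knocked out.

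The liver label was checked with marker genes. All 10 hepatocyte markers were above 1 CPM in each library, with summed levels of 30000 and 37200 CPM in Scr, 31700 and 32800 with miR-23a knocked out and 25900 and 25800 with miR-27a knocked out. *ALB* (log2 fold change -2.59), *AFP* (-4.11) and *FGB* (-2.05) were called lower and *TF* (1.25) higher in miR-27a KO by edgeR, and the other 6 were not called. Of these, *APOA1*, *SERPINA1* and *HNF4A* lay above Scr in CPM without overlap, *TTR* (-1.38) and *FOXA2* (-0.45) lay below it without overlap, and *APOB* overlapped. The part of these differences in that of *MID1IP1* was not tested. The 5 leukocyte markers summed to 543 and 565 CPM in Scr, 268 and 257 with miR-23a knocked out and 1610 and 1670 with miR-27a knocked out. *LYZ* led the sum except in miR-23a KO library 1, where *CD68* did, and *LYZ* was called higher in miR-27a KO (log2 fold change 1.96, edgeR adjusted p = 0.00204). *CD68* lay below Scr there without a call (-0.58, edgeR adjusted p = 0.0166, under 1.5-fold), and the defining markers *PTPRC* and *CD3E* had at most 2 and 7 counts. The fibroblast list was *PDGFRB* at 17.4 and 29.3 CPM in Scr and 5.64 and 5.12 in miR-27a KO with *COL1A1* at 2 counts or fewer. Endothelial markers summed to at most 6.84 CPM, led by *PECAM1*, and *ADIPOQ* and *LEP*, of the adipocyte and mammary gland list, had at most 1 count. The listed markers *COL1A2*, *COL3A1*, *LUM*, *KDR*, *CSN2* and *LALBA* were not analysed here.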

How the data were processed

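RNA was measured in 6 HepG2 libraries. The authors deposited 1 table of 20026 genes whose columns are named FPKM but hold expected counts, partly fractional, which were rounded to whole numbers. The processing notes name HISAT, StringTie, Cufflinks and GATK, and the genome build and counting tool are not given in the sources used here. Scaling used TMM factors, low counts were removed with filterByExpr, and every comparison used the 4 libraries of its groups in edgeR's quasi-likelihood test (edgeR 4.0.16, R 4.3.3) and Benjamini-Hochberg adjustment over all genes tested. Log CPM used a prior count of 2. DESeq2 1.42.0 was an alternative, among 7 alternatives and the omission of each library. Lengths, GC content, 3′UTRs and coordinates came from GENCODE 29 (17908 genes matched, 89.4%), and GC and length were corrected by loess (span 0.5, degree 2). Named genes were the members, up to 5 called genes per list (the most abundant where none was called), 5 neighbours on each side, the 5 genes most like *MID1IP1* and up to 8 lost genes. Other genes of the lists that are named, and *FADS6*, were chosen after their values were seen. The members and lists were chosen with earlier results of these data known. Whether counting used strand is not settled, so reads of antisense partners cannot be told apart.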

Additional observations from a re-analysis of the deposited data

Results flagged for a closer look

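Among the members and the listed genes tested between the knockouts, 6 had the 2 knockouts on opposite sides of both Scr libraries in CPM. For *ACACA*, *CPT1A*, *SPRING1*, *AGPAT3*, an acyltransferase, and *LYZ*, lysozyme, miR-27a KO lay above Scr and miR-23a KO below, and for *ELOVL3*, an elongase at 24 counts or fewer, the sides were exchanged. All 6 were picked for this pattern in the same libraries, so the tests of the difference are not independent of the choice. The difference between the knockouts was tested with edgeR's quasi-likelihood fit and Benjamini-Hochberg adjustment, and none of the 6 passed. For miR-23a KO against miR-27a KO the log2 fold change of *ACACA* was -0.80 (edgeR adjusted p = 0.747), that of *CPT1A* was -1.58 (adjusted p = 0.43) and that of *SPRING1* was -1.72 (adjusted p = 0.162). With 1 library left out these ran from -1.39 to -0.39, from -2.29 to -1.12 and from -1.75 to -1.70 in the same order. Over the 7 alternatives *SPRING1* passed in 3 (adjusted p from 0.00769 to 0.229 in edgeR or DESeq2) and *CPT1A* in 1 (0.0133 to 0.536). The values of the remaining genes were -0.64 for *AGPAT3* (edgeR adjusted p = 0.708), -3.29 for *LYZ* (adjusted p = 0.101) and 2.26 for *ELOVL3* (adjusted p = 0.386).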

How the results depend on the processing

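The causes of the changes listed here were not tested. In miR-23a KO against Scr, where edgeR called 0 genes, 63 were called by DESeq2, 10 without the low-count filter, 3 with all 6 libraries in one fit and 3 after the correction for GC content and length. For miR-27a KO 1418 became 892 without the filter and 64 with all 6 libraries in one fit. Apart from *MID1IP1*, which this contrast selected, the members called fell from 1 to 0 in that fit and with the GC correction. Between the knockouts, in place of 0, DESeq2 called 477 genes, the fit of all 6 libraries 218 and the GC correction 288, with 1, 1 and 2 members. *MID1IP1*, which was chosen on its miR-27a KO counts, is among them each time, and the other is *MLXIPL*. Leaving out 1 library at a time gave 4 to 2630 genes and 0 to 4 members in miR-23a KO, 334 to 3716 genes and 1 to 3 members in miR-27a KO, and 72 to 7303 genes and 1 to 5 members between the knockouts. The members counted with 1 library left out include *MID1IP1* each time in miR-27a KO and between the knockouts. It was chosen on its miR-27a KO counts, so its calls there are not independent of the choice. Where 1 member was counted in these 2 comparisons, it was *MID1IP1* alone. The log2 fold change of *MID1IP1* in miR-27a KO stayed between -8.73 and -8.45 over the 7 alternatives.

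Some log2 fold changes turned direction. In miR-23a KO against Scr, *PRKAB1* and *MID1* were at -0.01 with all 6 libraries in one fit, and the GC correction gave *INSIG2* -0.16 and *CIDEC* -0.03. In miR-27a KO the GC correction gave *ACACA* -0.01 and *SREBF1* 0.08. Between the knockouts it gave *SCD* 0.12 and *SREBF1* -0.33.

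With 1 library left out, the ranges crossed 0 in miR-23a KO against Scr for *MID1IP1* (-1.56 to 0.11), *FASN* (-1.06 to 0.50), *ELOVL6* (-0.75 to 0.05), *SREBF1* (-1.26 to 0.57), *ACSS2* (-1.22 to 0.96), *PRKAG1* (-0.32 to 0.47), *PRKAB1* (-0.39 to 0.32), *MID1* (-0.31 to 0.45), *FADS2* (-0.77 to 1.79), *INSIG2* (-0.71 to 1.07), *PPARGC1B* (-0.65 to 0.87), *ARRDC4* (-2.45 to 0.29), *FITM1* (-0.34 to 1.92), *CIDEC* (-1.49 to 0.92), *PLIN3* (-0.33 to 0.71) and *FDFT1* (-1.52 to 0.35). Between the knockouts they did for *ACACB* (-0.62 to 0.09), *FASN* (-0.83 to 0.79), *ACLY* (-0.16 to 0.31), *ELOVL6* (-0.22 to 0.53), *SREBF1* (-1.11 to 0.77), *ACSS2* (-0.68 to 1.55), *INSIG2* (-1.51 to 0.21), *ARRDC4* (-1.04 to 1.65), *TXNIP* (-0.46 to 1.00), *CIDEC* (-0.53 to 1.93) and *FDFT1* (-0.97 to 0.95).

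The labels tie libraries with the same replicate number by that number alone. Their deviations correlated across genes at 0.149 for Scr with miR-23a KO, 0.01 for Scr with miR-27a KO and 0.017 between the knockouts. Whether the libraries are paired is not settled by these values. With the number as a replicate block, 69 genes were called in miR-23a KO and 400 between the knockouts, with 1 member, *MID1IP1*, and with the block and the GC correction 31 and 820, with *MID1IP1* and *MLXIPL* as the 2 members in the latter. In miR-27a KO *MLXIPL* was called with block and GC correction (0.73) and *ACLY* was not (-0.48). The block turned *ACSS2* (-0.08) and *CIDEC* (-0.22) in miR-23a KO, and *FASN* (-0.02), *SREBF1* (-0.16) and *FDFT1* (-0.01) between the knockouts. With the GC correction as well it turned *INSIG2* (-0.26) and *CIDEC* (-0.17) in miR-23a KO, *ACACA* (-0.01) and *SREBF1* (0.09) in miR-27a KO, and *FASN* (-0.03) and *SREBF1* (-0.39) between the knockouts.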
